A study of Mus musculus with 17 samples.

Results

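The resting alveolar type 2 (AT2) transcriptome was described from the 8 libraries of uninjured, vehicle-treated mice among the 17 libraries of the series. They were chosen by their labels alone, and each library type has 4 replicates. Both sets are AT2 cells sorted by flow cytometry from 2-month-old C57BL/6J mice labelled naive and treated with vehicle, with saline in the titles, and RNA from both was extracted with the PicoPure kit and sequenced on a NextSeq 500. The poly(A) libraries came from 3 ng of RNA after poly(A) selection with the NEBNext Ultra kit, 24 h after vehicle. The total-RNA libraries came from 0.35 ng and the SMARTer Stranded kit for total RNA (v2, Pico Input), and their labels give no time after saline. The other 9 libraries are 4 poly(A) libraries after ISRIB, an inhibitor of the integrated stress response, and 5 total-RNA libraries taken 14 days after bleomycin. Kit, RNA input, experiment and depth change together between the library types and cannot be told apart. Every difference given here is therefore one between library types. The labels do not say that replicates came from separate mice, so p-values measure the spread between these libraries, which may be technical.

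AT2 cells line the alveolus, make and store surfactant in lamellar bodies and act as progenitors of the flat alveolar type 1 cells. Poly(A) selection keeps RNA that carries a tail of adenosines, which most messenger RNAs have. Random-primed total-RNA kits also copy ribosomal RNA, unspliced transcripts and RNAs that end without a tail, such as the products of RNA polymerase III, small nuclear and nucleolar RNAs, and the histone messages of dividing cells, which end in a stem-loop.

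Total counts were 11326385, 11143869, 15383943 and 10493574 in poly(A) 1 to 4, and 3295257, 4654479, 3438133 and 3353419 in total RNA 1 to 4. No pair of replicates was as alike as sampling noise alone would make it. Expression is given as CPM, counts scaled to a common library size after TMM scaling, with SD over 4 libraries. Differences are log2 values coded as total RNA minus poly(A), from edgeR's quasi-likelihood test with Benjamini-Hochberg adjustment, and calls have an adjusted p below 0.05. Intervals on counts cover counting error only, because the reads carry no molecular identifiers.

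The sequences of some of the RNAs that separated the library types are printed first, for the motifs at or near their ends. All are from the GENCODE M21 transcripts (GRCm38), 5′ to 3′ on the transcript strand with T for U. The Y RNAs, bound by the Ro60 protein, are made by RNA polymerase III. Rny3 lies at chr6:47781624-47781725 (plus strand) and Rny1 at chr6:47788069-47788180 (minus strand). The capitals mark the run of T at the 3′ end, where this polymerase stops.
Rny3: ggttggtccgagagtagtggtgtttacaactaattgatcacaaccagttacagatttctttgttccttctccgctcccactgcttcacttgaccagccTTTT
Rny1: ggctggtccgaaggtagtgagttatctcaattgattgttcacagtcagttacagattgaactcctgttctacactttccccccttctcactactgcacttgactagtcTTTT

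Box C/D small nucleolar RNAs guide methylation of ribosomal RNA and are mostly cut out of introns. The capitals mark a C box (ATGATGA) and a D box (CTGA). Snord87 lies at chr1:9942463-9942549 (minus) and Snord104 at chr11:106500993-106501062 (plus). U11 (Rnu11, chr4:132270080-132270213, minus) is the small nuclear RNA that recognises the 5′ splice site of minor introns, and its capitals mark a match to the site bound by Sm proteins.
Snord87: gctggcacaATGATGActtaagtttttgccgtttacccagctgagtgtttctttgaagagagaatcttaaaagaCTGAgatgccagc
Snord104: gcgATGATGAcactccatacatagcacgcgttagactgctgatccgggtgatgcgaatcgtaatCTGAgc
Rnu11: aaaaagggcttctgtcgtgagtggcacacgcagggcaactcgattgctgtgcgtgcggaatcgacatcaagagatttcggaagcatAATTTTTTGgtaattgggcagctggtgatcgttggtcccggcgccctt

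Replication-dependent histone messages are shown by 30 bases around the histone 3′ stem-loop motif, in capitals, for which any base was allowed at 4 positions and the others were fixed. The genes are Hist1h1e (chr13:23620629-23622558, minus), Hist1h4d (chr13:23581598-23582735, plus), Hist2h2ac (chr3:96220361-96220880, minus) and Hist1h1c (chr13:23738808-23740367, plus). In these annotated transcripts 1153, 770, 57 and 840 bases follow the motif, so only that of Hist2h2ac lies near the annotated end. Hist1h1c also has the polyadenylation signal AATAAA in the last 50 bases of an annotated transcript, shown as a second stretch, and Hist2h2be (chr3:96221119-96223738, plus) has the signal without the stem-loop motif.
Hist1h1e stem-loop: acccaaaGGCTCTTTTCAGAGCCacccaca
Hist1h4d stem-loop: aaccaaaGGCCCTTTTCAGGGCCactacct
Hist2h2ac stem-loop: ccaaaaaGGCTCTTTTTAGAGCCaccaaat
Hist1h1c stem-loop: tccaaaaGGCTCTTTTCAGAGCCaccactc
Hist1h1c signal: gtgtatgcttctAATAAAaagcgtttagtt
Hist2h2be signal: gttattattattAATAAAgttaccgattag

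The first comparison asked which RNA classes fill each type of library. Gene models that hold ribosomal RNA sequence took 22.8%, 14.6%, 18.9% and 15.9% of all counts in total RNA 1 to 4, against 0.0679%, 0.149%, 0.0356% and 0.0868% in poly(A) 1 to 4. The 2 mitochondrial ribosomal RNAs took 8.49 to 9.48% of total RNA and 0.281 to 0.333% of poly(A), and long non-coding RNAs 4.22 to 5.42% against 0.297 to 0.339%. Nuclear messages other than ribosomal protein and histone genes fell from 93.3 ± 0.223% (SD, n = 4) in poly(A) to 64.8 ± 3.35% (SD, n = 4). Messages of the mitochondrial genome were 3.52-fold lower as a share of counts, and those of cytoplasmic ribosomal proteins 2.36-fold lower.

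**Figure D1:**
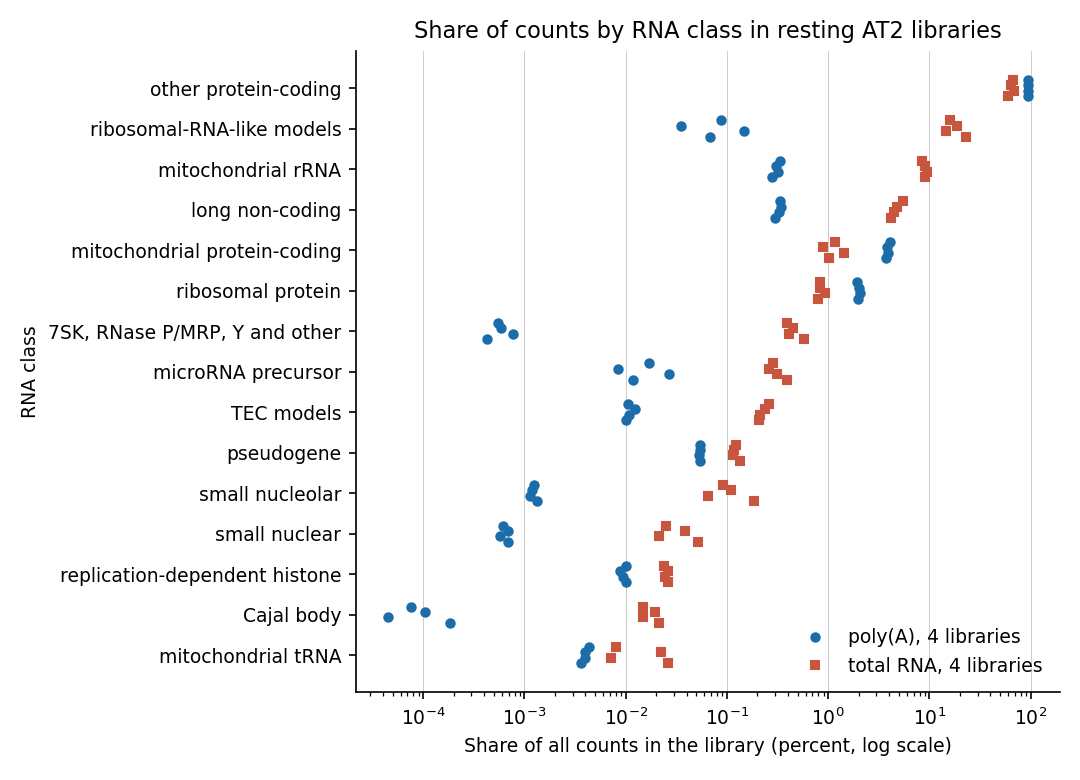
Share of all counts (percent, log axis) for 15 RNA classes, 1 point per library, poly(A) and total RNA. The groups do not overlap in any class, and the class of RNA polymerase III and ribozyme RNAs and the ribosomal RNA models are the farthest apart.

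Short RNA classes made up 0.00248 to 0.00263% of poly(A) counts and 0.511 to 0.835% of total-RNA counts. The class of RNA polymerase III and ribozyme RNAs was 793-fold higher in share, Cajal body RNAs 194-fold, small nucleolar RNAs 85.9-fold and small nuclear RNAs 50.7-fold. Models named as microRNA precursors were 21.2-fold higher, but Mir6236 alone held 92.7% of that class's counts in poly(A) and 93.2% in total RNA. Per 1000 counts of the ribosomal RNA model Gm42418, Mir6236 had 177 to 233 in poly(A) and 18.5 to 32.4 in total RNA. Whether its counts come from ribosomal RNA was not tested. Models that the annotation marks as awaiting experimental evidence (TEC models) rose 21.2-fold, pseudogenes 2.28-fold, replication-dependent histones 2.65-fold and mitochondrial transfer RNAs 3.43-fold. All 15 classes differed by the exact permutation test on the log2 share (two-sided p = 0.0286, adjusted p = 0.0286), the smallest p that 4 against 4 libraries can give. For mitochondrial transfer RNAs, leaving out any 1 poly(A) library raised the adjusted p to 0.0571 or 0.0857. With ribosomal RNA models out of the denominator each class kept its direction, and nuclear messages outside those 2 families were 93.3% against 79.1%.

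The same class shares were also taken in the libraries of the other conditions. Ribosomal RNA models took 0.0438 to 0.113% of counts in the 4 ISRIB libraries and 11.5 to 24.6% in the 5 bleomycin libraries. Long non-coding RNAs took 0.319 to 0.370% and 1.65 to 4.78%. Small nucleolar RNAs reached 0.0656 to 0.186% in the naive total-RNA libraries and 0.0274 to 0.0377% in the bleomycin libraries of the same kit. Pseudogenes took 0.115 to 0.136% in naive total RNA, 0.0778 to 0.0917% after bleomycin and 0.0527 to 0.0542% in naive poly(A). For mitochondrial transfer RNAs the bleomycin libraries, at 0.00107 to 0.00194%, lay below both naive sets, at 0.00363 to 0.00430% in poly(A) and 0.00724 to 0.0261% in total RNA. These shares were not tested across conditions.

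Across single genes, 8255 of the 11999 tested were called, so that 68.8% of all genes form the background to any count given here. Of them 4190 (34.9% of genes tested) were higher in total RNA and 4065 (33.9%) lower, and for 1984 (16.5%) and 1370 (11.4%) of these the log2 difference was 1 or more. The groups did not overlap in 61.7% of genes. The split of the calls depends on the scaling. Of the calls, 50.8% were higher with TMM, 34.9% with raw library totals (2986 higher, 5575 lower, a shift of the median by -0.29) and 65.3% with totals over nuclear coding genes (5410 higher, 2881 lower, a shift of 0.25). A log2 difference within about 0.3 of 0 therefore has no firm direction.

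RNA polymerase III transcripts and ribozymes showed the widest gap of any class. Rny3, printed above, had counts of 0, 1, 0 and 0 in poly(A) and 4844, 2950, 3088 and 2454 in total RNA. Rmrp, the RNA of RNase MRP, had 0, 1, 0 and 0 against 1796, 1490, 1285 and 877 counts, with 45.8% of its bases under exons of the other strand and a depth-scaled ratio of 21744 with a 95% counting interval of 3901 to 858997. The 7SK RNA (Rn7sk, chr9:78175303-78175633), which holds the elongation factor P-TEFb inactive, had 14, 23, 9 and 10 counts against 7416, 8903, 6535 and 5691 (log2 difference 10.98). Rpph1, the RNA of RNase P, had 4, 15, 1 and 2 counts against 3418, 4753, 3649 and 3169 (log2 difference 11.36, edgeR adjusted p = 1.7e-20). All 4 RNAs were thus seldom counted in poly(A) and well counted in each total-RNA library.

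In the list of 13 RNA polymerase III and related RNAs, 3 to 5 per library had a count in poly(A) and 12 to 13 in total RNA. Terc, the telomerase RNA, had 2 counts in each library type and was not tested.

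**Figure D2:**
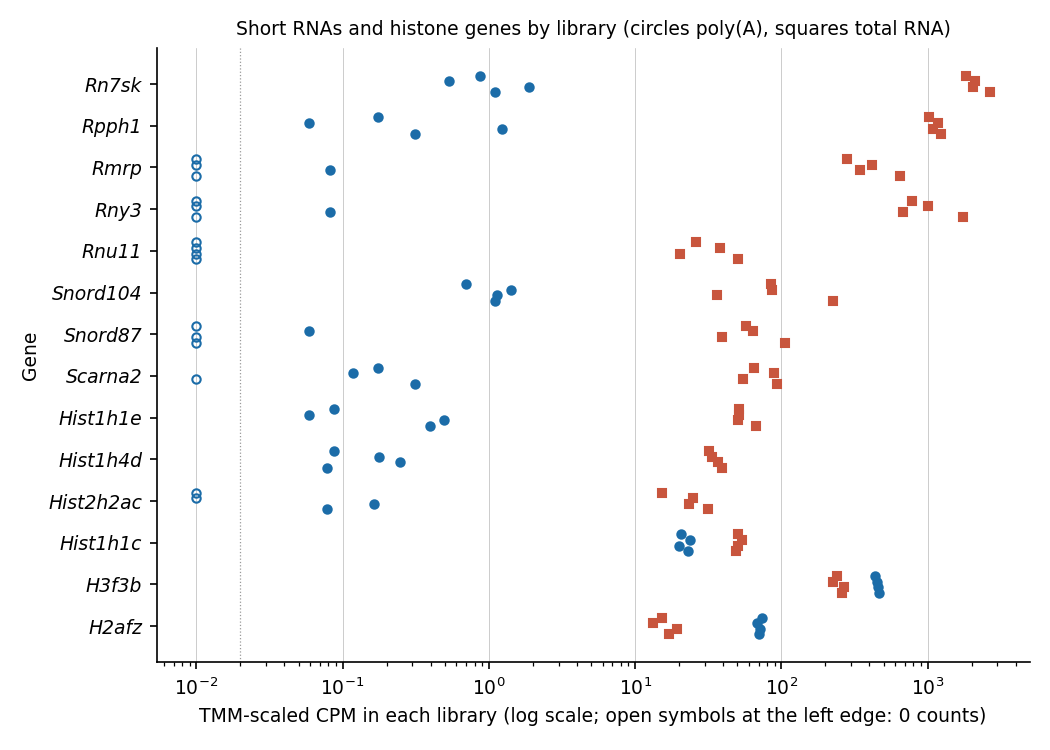
CPM (log axis) of short non-coding RNAs and histone genes in each library, circles for poly(A) and squares for total RNA, with open circles at the left edge for libraries with 0 counts. Rn7sk averages 1.10 CPM in poly(A) and 2163 in total RNA, while Hist1h1c, H3f3b and H2afz are well counted in both types.

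Of the 1484 small nucleolar RNA models, 166 had a count in poly(A) and 372 in total RNA. The 63 that passed the filter on low counts were all higher in total RNA, but 23 of them had no count in any poly(A) library and passed through total RNA alone, which fixed their direction. Snord104 had 14, 14, 24 and 8 counts in poly(A) and 630, 159, 268 and 267 in total RNA (log2 difference 6.54). Snord87 had 0, 0, 1 and 0 against 295, 171, 197 and 178. Total RNA 1 was the highest of its group for both. A C box followed by a D box on the transcript strand was found in 311 of the 1484 small nucleolar models (20.96%), and an ACA 3 bases from the 3′ end in 267 (17.99%), with 4 models holding both. Models with the C and D boxes had 137 counts in poly(A) and 8703 in total RNA, those with the ACA 255 and 4475, and those with neither 210 and 2899.

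Of 1385 small nuclear RNA models, 123 had a count in poly(A) and 415 in total RNA, and of 41 Cajal body RNAs 12 and 20. Rnu11 had no count in poly(A) and 141, 88, 117 and 81 in total RNA, at least 568-fold higher against a floor of 3 counts over the 4 poly(A) libraries. All its bases are covered by exons of the other strand, and whether strand was used in counting is not stated. Scarna2, a guide RNA of Cajal bodies, had 4, 0, 2 and 2 counts against 261, 238, 275 and 203 (log2 difference 8.82). Scarna13 had no count in poly(A) and 239 in total RNA, at least 318-fold higher. Of the small nucleolar models, 51 of those tested lay inside a coding gene on its strand. In a separate list of snoRNA host genes, 7 of 11 tested were higher and 1 lower, beside 34.9% and 33.9% of all genes. The hosts of those 51 models were not compared with the models. Gas5, a host of several box C/D RNAs, had 39.8 ± 2.45 CPM in poly(A) and 63.2 ± 3.00 in total RNA (SD, n = 4).

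Of the 64 replication-dependent histone genes, 22 had a count in poly(A) and 49 in total RNA, and 14 passed the filter on low counts. Hist1h1e, a linker histone H1, had 5, 6, 1 and 1 counts in poly(A) and 186, 221, 159 and 161 in total RNA. Hist1h4d, a histone H4 gene whose copies can share reads, had 1, 3, 3 and 1 counts against 109, 161, 103 and 100. Hist2h2ac had 1, 2, 0 and 0 against 88, 101, 77 and 48, a ratio of 418 with a 95% counting interval of 142 to 2037. These 3 genes, whose stem-loops are printed above and in which no polyadenylation signal was found, hardly reached the poly(A) libraries.

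Other histone genes were counted well in both library types. Hist1h1c had 21.7 ± 1.79 CPM in poly(A) and 51.1 ± 2.01 in total RNA (SD, n = 4), a log2 difference of 1.23. Hist2h2be, with the signal and no stem-loop motif, was lower in total RNA (log2 difference -1.27), while Hist1h2bc (-0.30, neither found) and Hist3h2a (-0.41, both found) were not called. The stem-loop motif was found on the transcript strand of 40 of the 64 histone genes (62.5%) and of 5 of 21351 other nuclear coding genes (0.0234%). A match needs an annotated transcript that reaches the motif, so a histone gene without a match can still have the stem-loop. AATAAA or ATTAAA in the last 50 bases was found in 17 histone genes (26.6%) and in 78.9% of the others. The 28 genes with the motif alone had 53 counts in poly(A) and 1910 in total RNA, and the 12 with motif and signal 1630 and 1295. Of those 1630 counts, Hist1h1c held 1168 and Hist3h2a 358. Hist4h4 (9 counts in poly(A) against 187), Hist1h4h (13 against 185) and Hist2h4 (2 against 66) also have both and were seldom counted in poly(A). Of the 6 tested genes with both, 5 were higher in total RNA. The replacement histones, made outside S phase from polyadenylated messages, went the other way: 8 of 9 tested were lower and none higher. Of nuclear coding genes, 35.7% were lower and 32.2% higher. H3f3b, a histone H3.3 gene, had 454 ± 11.5 CPM in poly(A) and 247 ± 18.8 in total RNA (SD, n = 4), and H2afz had a log2 difference of -2.11.

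The mitochondrial genome split by RNA type. Its circular DNA is copied into long transcripts from which ribosomal RNAs, transfer RNAs and messages are cut. The small ribosomal RNA mt-Rnr1 had 539, 619, 543 and 666 CPM in poly(A) and 44315, 45812, 42038 and 39974 in total RNA (log2 difference 6.18, SE 0.11). The large one, mt-Rnr2, rose from 2217 ± 180 to 56719 ± 4787 CPM (SD, n = 4; log2 difference 4.68). All 7 mitochondrial messages tested were lower, against 33.9% of all genes. The cytochrome oxidase subunit mt-Co1 had 9821, 10829, 10451 and 11051 CPM against 2405, 2947, 1989 and 2350 (log2 difference -2.12). The NADH dehydrogenase subunit mt-Nd5 moved least (-0.91) and mt-Nd6, which is read from the opposite strand, most (-2.89).

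**Figure D3:**
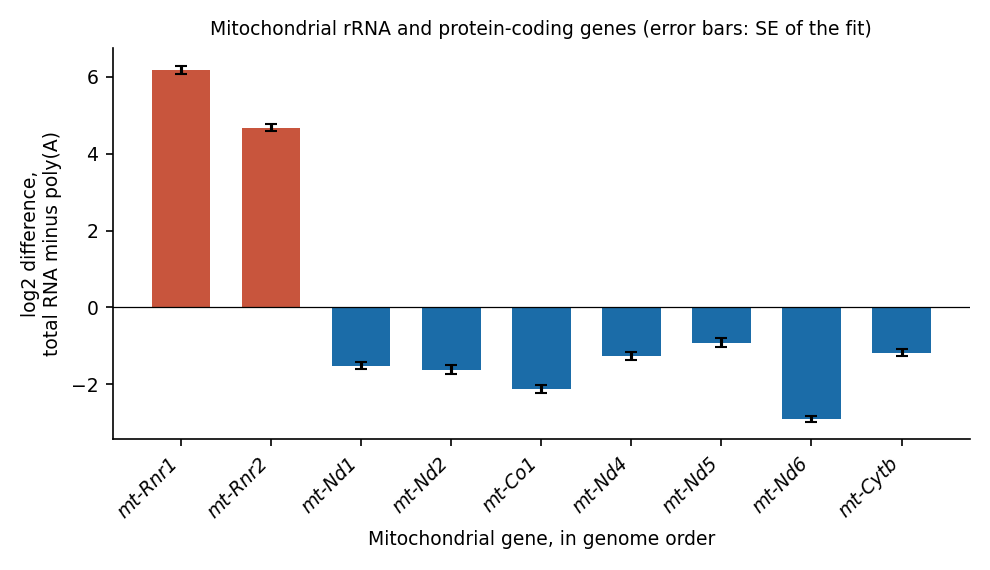
Log2 difference (total RNA minus poly(A)) of the 2 mitochondrial ribosomal RNAs and the 7 tested messages in genome order, with the SE of the fit (n = 4 libraries per type) as error bars. Both ribosomal RNAs lie above 0 and all 7 messages below.

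Of 22 mitochondrial transfer RNAs, 7 had a count in poly(A) and 17 in total RNA. mt-Tv, which lies between the ribosomal RNAs, had no count in poly(A) and 201, 43, 190 and 29 in total RNA, at least 616-fold higher. mt-Ti had no count against 86, 35, 63 and 27. mt-Tp had 255, 255, 355 and 256 counts against 289, 98, 280 and 111, a log2 difference of 1.54. In all 3, total RNA 1 and 3 were the highest libraries, and the class share in these was 0.0261% and 0.0224%, against 0.00724% and 0.00802% in total RNA 2 and 4. mt-Tc ran the other way, with 134, 153, 212 and 160 counts in poly(A) and 0, 0, 2 and 0 in total RNA. mt-Tp, mt-Tc and mt-Tn, all on the strand of mt-Nd6, held 98.1% of the transfer RNA counts in poly(A). On the same strand, mt-Tq and mt-Ta had no count in poly(A). Whether strand was used in counting is not stated, so the counts of these genes and of mt-Nd6 may include reads of the other strand. This was not tested. mt-Atp8, mt-Atp6, mt-Co3 and mt-Nd4l were listed at 0 in all 8 libraries and mt-Co2 had 2 counts in poly(A) 1 alone, so their levels are not given by these tables.

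Among long non-coding RNAs, 360 were tested, 193 were higher and 51 lower, beside 34.9% and 33.9% of all genes. Malat1, a nuclear RNA of splicing speckles (chr19:5795690-5802672, minus), had 588, 766, 827 and 861 CPM in poly(A) and 43188, 42019, 46944 and 51334 in total RNA, 60.3-fold more by their means (log2 difference 5.91, SE 0.13). It held 87.5% of long non-coding counts in total RNA and 26.0% in poly(A). Neat1, the scaffold of paraspeckles, had 159, 167, 251 and 167 CPM against 1936, 2040, 2288 and 2566 (log2 difference 3.57). Kcnq1ot1, the antisense RNA of an imprinted domain, had 13.5 ± 3.07 against 225 ± 50.9 CPM (SD, n = 4). Lncpint (6.51), Meg3 (4.41) and Firre (33.8 against 2.12 CPM) were the others among the 5 named genes with the widest difference upward.

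Snhg14 fell by 3.00 on the log2 scale, from 22.8 ± 1.17 to 2.74 ± 0.871 CPM (SD, n = 4). Tmem134 (-1.43, classed as non-coding in the annotation), Fam120aos (-1.09), Zfas1 (-0.82) and Brip1os (-0.76) were the other named long non-coding models with the widest fall. In a list of 8 tested nuclear long non-coding RNAs, 6 were higher, beside 34.9% of all genes. The 2 lower ones were Snhg14 and Tug1 (-0.27), beside 33.9% of all genes. Long non-coding models outside coding genes, leaving out Malat1 and Neat1, took 0.0919% of poly(A) counts and 0.134% of total-RNA counts, 1.46-fold more.

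Models that lie inside a coding gene on the same strand share their sequence with its introns or exons. The TEC models in that position took a 23.9-fold higher share of total-RNA counts, and those outside coding genes a 34.5-fold higher share. Of long non-coding models inside a coding gene on its strand, 27 of 29 tested were higher (median log2 difference 3.76). Long non-coding models inside a coding gene on its opposite strand were higher in 19 of 45 cases and lower in 12. Of all genes tested, 34.9% were higher and 33.9% lower, and the models on the opposite strand were not far from these shares.

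Models whose exons are wholly covered by exons of the other strand were counted in both library types. Of 85 such long non-coding models, 3 to 5 per library had a count in poly(A) and 25 to 31 in total RNA. Of 3722 long non-coding models with no such cover, 593 to 697 had a count in poly(A) and 693 to 960 in total RNA. Of 36 such coding models, 2 to 5 had a count against 7 to 12. No source used here states whether strand was used in counting. It is therefore not known whether reads from a gene and its antisense partner were told apart in either type.

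The second question was how AT2 genes rank in each library type. Levels were divided by the merged exon length (CPM per kb) over 11152 nuclear coding genes. Sftpc, the AT2-specific surfactant protein C (chr14:70520949-70524081), ranked first in both, at 94743 ± 1925 CPM per kb in poly(A) and 40047 ± 3056 in total RNA (SD, n = 4). Lyz2, a lysozyme of mouse AT2 cells and macrophages, was second in both, at 23996 ± 974 and 9850 ± 753, and can share reads with its neighbouring copy Lyz1. Sftpb and Sftpa1, the other surfactant proteins at the top, held ranks 3 and 4 in poly(A) (8941 ± 267 and 7576 ± 324) and exchanged places in total RNA (4787 ± 448 and 5666 ± 378). Of the 20 highest genes 17 were shared, and of the 100 highest 75.

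**Figure D4:**
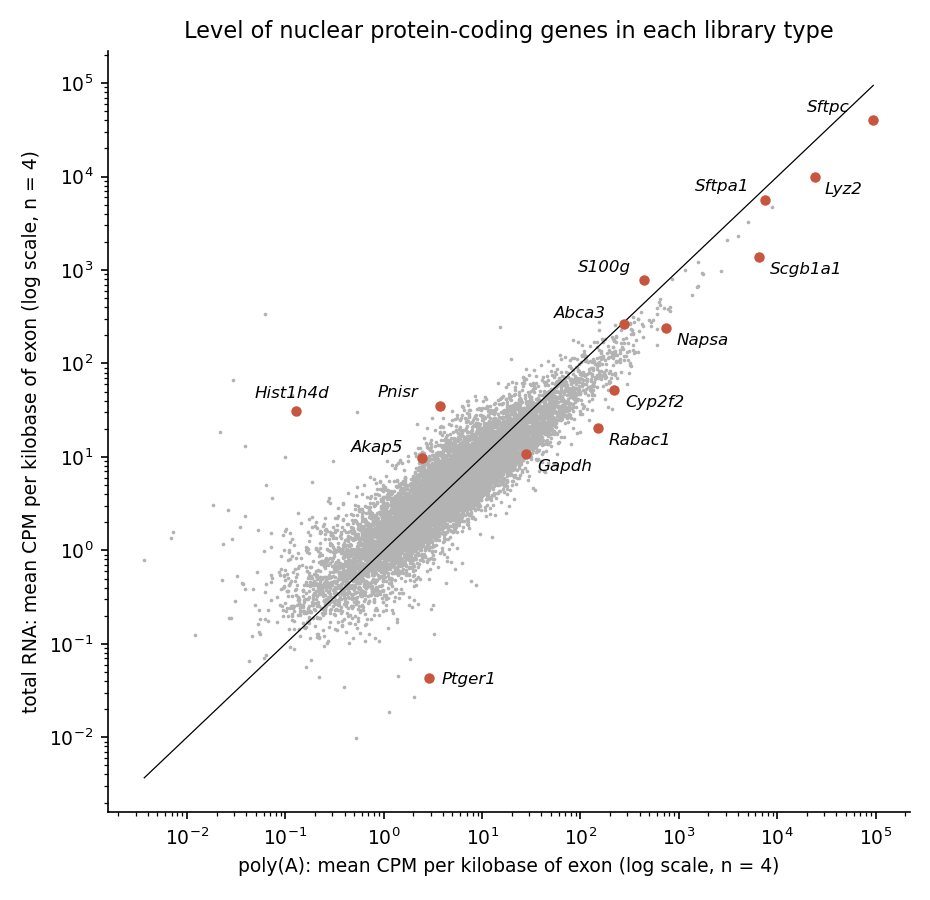
Level per kb of merged exons (CPM per kb, log axes) of nuclear coding genes in poly(A) and total RNA, means of 4 libraries, with the line of equal levels and some of the genes named. The genes keep a common order (Spearman rho 0.895 across genes), with Sftpc and Lyz2 at the upper end of both axes.

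Spearman's rho across the 11152 genes was 0.895, a description over genes that share libraries. Single libraries of the 2 types gave 0.868 to 0.894 over 16 pairs, with 70 to 77 of the top 100 shared. Pairs within poly(A) gave 0.992 to 0.994 and within total RNA 0.970 to 0.974, with 91 to 95 shared in each.

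The AT2 programme filled the upper ranks of both types. Scd1, which desaturates fatty acids, was 6th in poly(A) and 5th in total RNA, the chemokine Cxcl15 7th and 6th, the phosphate carrier Slc34a2 8th and 7th, and Sftpd 13th and 9th. Lamp3, a membrane protein of lamellar bodies, was 16th and 10th, and complement Hc 17th and 14th. S100g, a calcium-binding protein, climbed from rank 35 to 15, with 204, 218, 219 and 212 CPM in poly(A) against 425, 331, 377 and 376. Napsa, the protease that processes surfactant protein B, sank from 22 to 46, with 1942, 1983, 1940 and 2043 CPM against 697, 615, 653 and 581.

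In CPM, 17 of the 20 AT2 markers were lower in total RNA and 1, S100g, higher, beside 35.7% and 32.2% of the 11152 nuclear coding genes, of which 67.9% were called either way. The groups did not overlap for 19 of the 20, and for 60.6% of nuclear coding genes. Their median log2 difference was -0.67, against -0.05 over nuclear coding genes, and -0.95 or -0.42 with the other scalings. In the highest of 5 groups of nuclear coding genes by level per kb in poly(A), the median was -0.59. Of that group 71.1% were lower and 13.9% higher, so a fall of this size is not particular to AT2 markers. As a share of all counts the 20 markers made up 27.6 to 28.2% of poly(A) and 11.7 to 13.2% of total RNA. Sftpc had 96154, 98660, 100458 and 96585 CPM against 46138, 39616, 39760 and 40118 (log2 difference -1.24, SE 0.08). Abca3, the lipid pump of lamellar bodies, had 2622 ± 49.1 and 2453 ± 93.9 CPM (SD, n = 4) and was not called, nor was Hc (5345 ± 304 and 5048 ± 139). The direction of both, and of Lamp3, turned with totals over coding genes. The 100 highest coding genes held 40.72 to 41.20% of nuclear coding counts in poly(A) and 29.08 to 30.01% in total RNA.

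Markers of other cell types were counted to check the sort. In bulk samples, fewer cells of a type and less RNA per cell cannot be told apart. Of 8 airway markers 7 were tested, 5 were lower in total RNA and none higher, beside 35.7% and 32.2% of nuclear coding genes. The summed share of the airway markers was 0.384 to 0.434% in poly(A) and 0.0486 to 0.0926% in total RNA. The club cell secretoglobin Scgb1a1 ranked 5th and 8th per kb, with 3210, 3292, 3041 and 2921 CPM against 835, 544, 832 and 388. Cyp2f2, a club cell cytochrome P450, had 436, 493, 424 and 439 CPM against 111, 110, 121 and 79. Scgb1a1 and Cyp2f2 mark club cells and were thus among the well counted genes of both sorts. The basal cell keratin Krt5 was at 0 in poly(A), while each of the 8 airway markers, Krt5 included, had a count in total RNA.

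Defining markers of macrophages were near 0 in both types. C1qa had no count in any library, Marco 1 count in poly(A) and none in total RNA, and Adgre1 none and 1. The summed macrophage share was 0.000777 to 0.000975% in poly(A) and 0.000623 to 0.000880% in total RNA, and neither of the 2 tested genes (Cd68, Csf1r) was called. Of 8 endothelial markers tested 4 were lower and none higher, and of 5 fibroblast markers 4 were lower, beside 35.7% of nuclear coding genes lower. Dcn, a matrix proteoglycan, had 30, 51, 35 and 41 counts in poly(A) and 0, 1, 0 and 0 in total RNA. The T and B cell genes Cd3e, Cd3d, Ms4a1 and Trbc2 had no count, and Cd79b alone of 10 lymphocyte markers was tested (log2 difference -1.63). None of 5 erythroid markers passed the filter.

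Of 12 alveolar type 1 markers, 7 were lower and 3 higher, beside 35.7% and 32.2% of nuclear coding genes. Ager, high in type 1 cells, stood at ranks 27 and 24 with 1296 ± 52.2 and 832 ± 119 CPM (SD, n = 4). Akap5, a kinase anchoring protein, had 16.4, 17.1, 16.7 and 16.8 CPM against 64.8, 64.6, 62.4 and 73.6, and moved from rank 7600 to 3113. Col4a3, a basement membrane collagen, had 25.5, 27.1, 42.3 and 27.8 CPM against 110, 83.0, 91.8 and 90.2. Hopx, a transcriptional cofactor, fell by 1.39 on the log2 scale, so members of 1 marker list moved in opposite directions between library types.

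Short, abundant messages were lower in total RNA. Of 79 ribosomal protein genes tested, 73 were lower and 2 higher (Rpl23a and Rplp2), with a median of -1.08 (-1.37 and -0.84 with the other scalings). Pseudogene copies of these genes can take part of their reads. Rpl4, with 656 ± 29.2 against 472 ± 11.2 CPM (SD, n = 4), moved less than Rpl39, a small protein at the ribosome's exit tunnel, with 46.7 ± 2.41 against 6.70 ± 1.47. Of 78 nuclear-encoded respiratory chain subunits, 57 were lower and 4 higher, with a median of -0.83. Beside both families, 35.7% of nuclear coding genes were lower and 32.2% higher. In the highest of 5 groups by level per kb in poly(A), 71.1% were lower and 13.9% higher. In the shortest of 5 groups by exon length, these shares were 59.7% and 10.4%. The share of respiratory chain subunits that fell was near that of the highest group, so it is not particular to them. Gapdh (-1.38), Actb (-0.38) and Eef1a1 (-1.33), which serve as reference genes, were all lower, though the call of Actb was lost with totals over coding genes (-0.14).

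In a list of 21 tested immediate-early and heat shock genes, 7 were higher and 5 lower, beside 32.2% and 35.7% of nuclear coding genes. The median of the list was 0.03 and turned to -0.26 with raw totals. The AP-1 subunits Fos (31.7 ± 1.29 against 88.7 ± 14.3 CPM, SD, n = 4), Fosb (log2 difference 1.89) and Jun (1.19) were higher, and Junb was lower (-0.51). The 4 Y-linked genes of a sex-linked list (Ddx3y, Eif2s3y, Kdm5d and Uty) were higher in total RNA and Xist was not called.

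**Figure D5:**
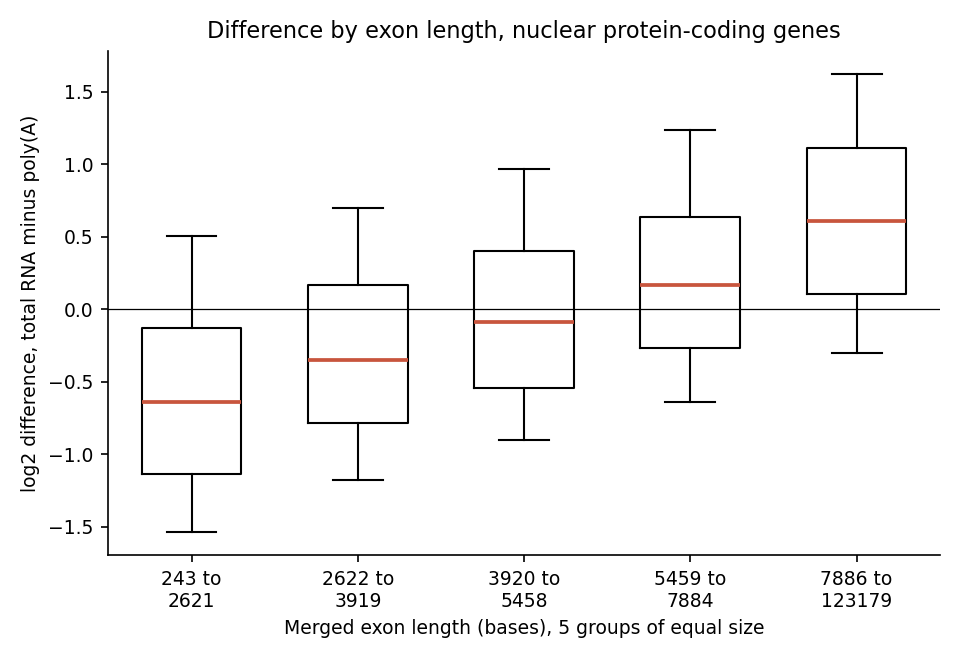
Log2 difference (total RNA minus poly(A)) of nuclear coding genes in 5 groups of equal size by merged exon length, with the median (line), the quartiles (box) and the 10th and 90th percentiles (whiskers). The median rises from -0.64 in the shortest group to 0.61 in the longest.

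The difference followed transcript length. In 5 groups of nuclear coding genes by merged exon length, the median log2 difference was -0.64 (243 to 2621 bases), -0.35, -0.09, 0.16 and 0.61 (7886 to 123179 bases). In the shortest group 10.4% were higher and 59.7% lower, and in the longest 65.9% and 11.2%. Spearman's rho across genes was 0.495 with length, 0.430 with the number of exon blocks and -0.234 with GC content, and these properties go together in genes. It was -0.427 with the level per kb in poly(A), which is itself part of the difference. Within the GC-richest and GC-poorest groups the shortest genes had medians of -0.82 and -0.24. Single genes also went against this trend, such as S100g (480 bases) among those higher and Emp2 (8644) and Mfsd4a (7187) among those lower. No difference given here was adjusted for length.

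The coding genes with the widest differences included some with almost no count in 1 type. Mroh6 (102, 40, 86 and 51 counts), Pde11a, Hist1h1d, Srrm3 and Pdcd2 were at 0 in all poly(A) libraries, at least 371-, 146-, 144-, 128- and 117-fold higher in total RNA. All exon bases of Pdcd2 are covered by a gene on the other strand. In the other direction, the prostaglandin receptor Ptger1 had 197, 173, 298 and 186 counts in poly(A) and 2, 1, 0 and 0 in total RNA, with 71.0% of its exon bases under exons of the other strand, and Mfsd4a 163, 180, 273 and 166 against 0, 2, 1 and 0. Dennd1c (-4.61), Rnaset2b (-4.56, a near-identical copy of a neighbouring gene) and Il17d (-4.01) followed.

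A further set was chosen after its values were seen, as the 10 widest differences each way among coding genes with at least 5 CPM in both types. The splicing-related Pnisr had 37.6, 35.2, 40.4 and 38.3 CPM in poly(A) and 364, 327, 351 and 397 in total RNA, and moved from rank 6374 to 613. Snhg11 (3.36), the centrosome genes Cep295 (3.08) and Cntrl (3.05), the methylcytosine dioxygenase Tet2 (2.87), Akap8l (2.87), Cracr2a (2.74), the nuclear envelope protein Syne2 (2.73) and Ccdc57 (2.66) were also higher. Lars2, a mitochondrial leucyl-tRNA synthetase, had the widest difference (4.01). It had 235 to 288 counts per 1000 counts of the ribosomal RNA model Gm42418 in poly(A) and 15.6 to 25.9 in total RNA. In poly(A) 1 to 4, Lars2 had 1606, 3487, 1358 and 2067 counts and Gm42418 6829, 14643, 4722 and 7994. Whether Lars2 counts come from ribosomal RNA was not tested.

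At the lower end were Rabac1, a Rab-binding protein of the Golgi (219, 233, 241 and 228 CPM against 37.4, 33.8, 27.8 and 24.6), and Tspo, a protein of the outer mitochondrial membrane (212, 219, 224 and 224 against 35.6, 38.2, 30.1 and 32.0). Rpl36al (-2.82), Rpl39 (-2.79), Mrpl14 (-2.69), Rpl27 (-2.67), the small heat shock protein Hspb1 (-2.54), the secretoglobin Scgb3a2 (-2.54), Cox6a1 (-2.46) and Rps10 (-2.43) completed the set. Of these 10 genes, 4 encode cytoplasmic ribosomal proteins or a copy of one, 1 a mitochondrial ribosomal protein and 1 a cytochrome oxidase subunit.

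More genes were detected in total RNA at equal depth. With all counts, 16833 to 17591 genes had a count in poly(A), and 19763, 19433, 17894 and 17108 in total RNA 1 to 4. At the depth of the shallowest library (2542671 counts outside ribosomal RNA models) the expected numbers were 14295 to 14333 and 16771 to 19662. With at least 5 counts they were 10992 to 11092 and 11858 to 12354. Total RNA 1 and 2 also had the most olfactory and vomeronasal receptor genes with a count (89 and 96 of 1313, against 39 and 32 in total RNA 3 and 4 and 8 to 17 in poly(A)). These genes are normally silent outside the nose, and they were few among the 19763 and 19433 genes with a count in total RNA 1 and 2. Replicates spread less in poly(A), with a common biological coefficient of variation of 7.28% against 11.7% in total RNA, and 6.98% against 10.1% over 9566 genes with at least 10 counts in every library.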

How the data were processed

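The authors deposited raw counts of reads per gene, in 1 table per library type over 43430 Ensembl mouse gene IDs. Per the submitters' processing notes, bcl2fastq 2.19.1, FastQC, Trimmomatic 0.36, STAR 2.6.0 and HTSeq 0.11.2 were used with mm10. The annotation release, strand setting and handling of reads with several matches were not given in the sources used here. Classes, lengths and positions came from GENCODE M21 (GRCm38), which holds 42546 of the IDs, and the sequences from its transcripts.

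The 8 libraries were fitted with library type as the only term in edgeR 4.0.16 (R 4.3.3): filterByExpr (minimum count 10, total 15), TMM scaling, quasi-likelihood F test, Benjamini-Hochberg over all genes tested. The procedure was tested on simulated data in which at most 200 of the tested genes were changed. Far more genes differ here, so that test cannot judge the calls of these data. Class shares use raw counts, with ribosomal protein, histone, mitochondrial and ribosomal-RNA-like models split off by symbol, and an exact permutation test over libraries (70 splits). Genes at equal depth are the expected number after drawing without replacement. Levels between genes were compared per kb.

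Members, lists and tests were chosen with earlier results of these data known. Named genes are the 15 highest per kb in each type, the 5 widest differences each way among coding and among long non-coding genes with at least 5 CPM, the 3 highest of each class in total RNA, a panel, and up to 3 genes per list; 1 of them is not reported here. Alternatives were other scalings and filters, DESeq2 1.42.0, limma-voom (limma 3.58.1), a replicate block and each library left out. Total counts of 3295257 to 15383943 set the precision.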

Additional observations from a re-analysis of the deposited data

Results flagged for a closer look

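In 9 of 206 groups of 4 values, 1 library stood apart from the other 3 by more than Dixon's critical value for the gap over the group's range. Chance alone gives about 1 such group in 20. Depth set apart poly(A) 3, with 15383943 counts against 10493574 to 11326385, and total RNA 2, with 4654479 against 3295257 to 3438133. At equal depth poly(A) 1 had 14333 genes with a count against 14295 to 14299. Poly(A) 3 was the highest of its group for Neat1 (251 CPM against 159 to 167) and Col4a3 (42.3 CPM against 25.5 to 27.8). Total RNA 1 was the highest for Sftpc (46138 CPM against 39616 to 40118) and Hist1h1e (67.0 CPM against 50.8 to 51.5) and the lowest for Firre (28.8 CPM against 35.2 to 36.2). Total RNA 3 was the highest for Fosb (33.3 CPM against 21.4 to 22.5). For each of these genes the poly(A) and total-RNA libraries did not overlap.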

How the results depend on the processing

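The number of genes higher in total RNA rose from 4190 to 6313 with DESeq2 and to 6998 without a filter on low counts. It stayed within 1.5 times under each other alternative, as did the number lower under all of them. Leaving out 1 library at a time gave 3935 to 4269 higher and 3804 to 4140 lower. With the replicate number as a block, 4086 were higher and 4024 lower. Libraries with the same number did not deviate together (correlations of -0.01 to 0.03). Spread within each library type may be technical and could hide a pairing, so these correlations cannot settle whether the numbers pair the samples. The mitochondrial transfer RNA share differed by 1.74, 1.78, 1.78 or 1.82 on the log2 scale without poly(A) 1, 2, 3 or 4, past the threshold in none (exact permutation, adjusted p = 0.0571 to 0.0857). Its range over all libraries left out in turn was 1.47 to 2.08. The rank correlation was 0.858 over genes with at least 5 CPM, 0.907 without division by length and 0.893 to 0.897 with 1 library left out. The coefficient of variation of total RNA was 10.1% over genes with at least 10 counts in every library and 11.1 to 12.4% with 1 library left out, and that of poly(A) 6.77 to 7.53%. Of 123 named genes with a fit, 114 reversed or lost their call under none of the alternatives. With raw totals the macrophage median turned to -0.19, the immediate-early and heat shock median to -0.26 and Hspa8 to -0.23. Hspa8 was also -0.10 without a filter, -0.16 without total RNA 3 and -0.01 (-0.00855) without poly(A) 1. With totals over nuclear coding genes, Hc turned to 0.17, Lamp3 to 0.041, Abca3 to 0.15, Kdr to 0.01 (0.00902) and Cd68 to 0.059, and the calls of Sftpa1 (-0.17), Sftpd (-0.12) and Actb (-0.14) were lost. The cause of these changes was not tested. Depth limits what short or rare RNAs show, with 1 count each of Rny3, Rmrp and Snord87 in the 4 poly(A) libraries together.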
